A study of Danio rerio with 8 samples.

Results

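Cxcl12 is a secreted chemokine that binds heparan sulfate on cell surfaces and in the matrix. It signals through Cxcr4, a receptor coupled to inhibitory G proteins that directs cell migration, and it is taken up and removed by Ackr3, an atypical receptor that acts through arrestins. Zebrafish carry duplicates of all of these, so that the ligands are encoded by cxcl12a and cxcl12b, the signalling receptors by cxcr4a and cxcr4b and the scavenging receptors by ackr3a and ackr3b. In the zebrafish heart, Cxcr4a is known from the endothelial cells that build the coronary vessels, and Cxcl12b is known as a ligand that guides them. These 6 genes were taken by symbol from the deposited counts, where they occupy 9 rows of 53709 (6 of 37685 symbols). A symbol can stand on several rows, the later ones with an added number (cxcl12b and cxcl12b_1), called copies here, and the copies of a gene were summed. Of the 6 genes, 5 had counts, on 7 rows.

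The libraries were made from tcf21:nEGFP-positive cells sorted from ventricles of zebrafish aged 70 days. The tcf21 reporter marks the epicardium, the outer cell layer of the heart, and was carried by both groups. There were 4 libraries from cxcr4a mutants (allele cxcr4aum20, labelled as having coronary loss) and 4 from wild-type (WT) controls. The mutation is not restricted to a cell type in the labels, so an effect on the epicardium itself and an effect of the missing vessels cannot be told apart. The labels do not say whether libraries came from separate fish or pools, and p-values reflect how far these libraries spread, part of which may be technical.

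Total counts ran from 18891079 to 25513003 in cxcr4a mutants and from 19584695 to 28471786 in WT. Mitochondrial rRNA took 3.33% to 7.38% of counts in mutants and 3.82% to 21.4% in WT, where WT 1 was the highest and WT 2 followed at 9.96%. The epicardial genes tbx18 (749 ± 65.2 CPM in mutants and 827 ± 276 CPM in WT, SD, n = 4 each) and tcf21 (88.5 ± 17.6 CPM in mutants and 109 ± 31.1 CPM in WT) were present in every library. aldh1a2, another gene on the epicardial marker list, had only 15 counts over all mutants and 18 over all WT libraries. Marker genes of other cell types were counted too, and whether those cells were in the sort was not tested. Summed levels ran from 698 to 4648 CPM in mutants and from 1405 to 3949 CPM in WT for leukocyte markers. They ran from 306 to 454 CPM in mutants and from 253 to 520.4 CPM in WT for endothelial markers, and from 478 to 2225 CPM in mutants and from 387 to 714 CPM in WT for cardiomyocyte markers. In these bulk samples, more cells of a type and more RNA per cell cannot be told apart.

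Among the members, the ligand gene cxcl12a was above every WT library in 4 of 4 cxcr4a mutants, and its partner cxcl12b was lower on average with overlapping groups. The scavenger gene ackr3b was on average higher in mutants, its paralog ackr3a had no counts, and neither cxcr4a nor cxcr4b separated the groups. With edgeR's quasi-likelihood test over 16631 summed symbols, 0 of 5 tested members passed an adjusted p of 0.05, against 0.0481% of all symbols (8 called). At an unadjusted p under 0.05 there were 2 of 5 members, cxcl12a and ackr3b, against 8.64% of all symbols in either direction and 5.09% higher in mutants. DESeq2 called 1 of 5, cxcl12a, against 2.47% of the 18966 symbols with an adjusted p. It had 2 of 5 at an unadjusted p under 0.05, against 9.14% of the 26147 symbols with a p. limma voom with quality weights called 0 of 5, against 0.012%, with 3 at an unadjusted p under 0.05 (cxcl12a, ackr3b and cxcr4a), against 10.8%. Levels below are TMM-scaled CPM, each count divided by the size of its library, which are not corrected for transcript length and are therefore compared between libraries, not between genes.

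**Figure D1:**
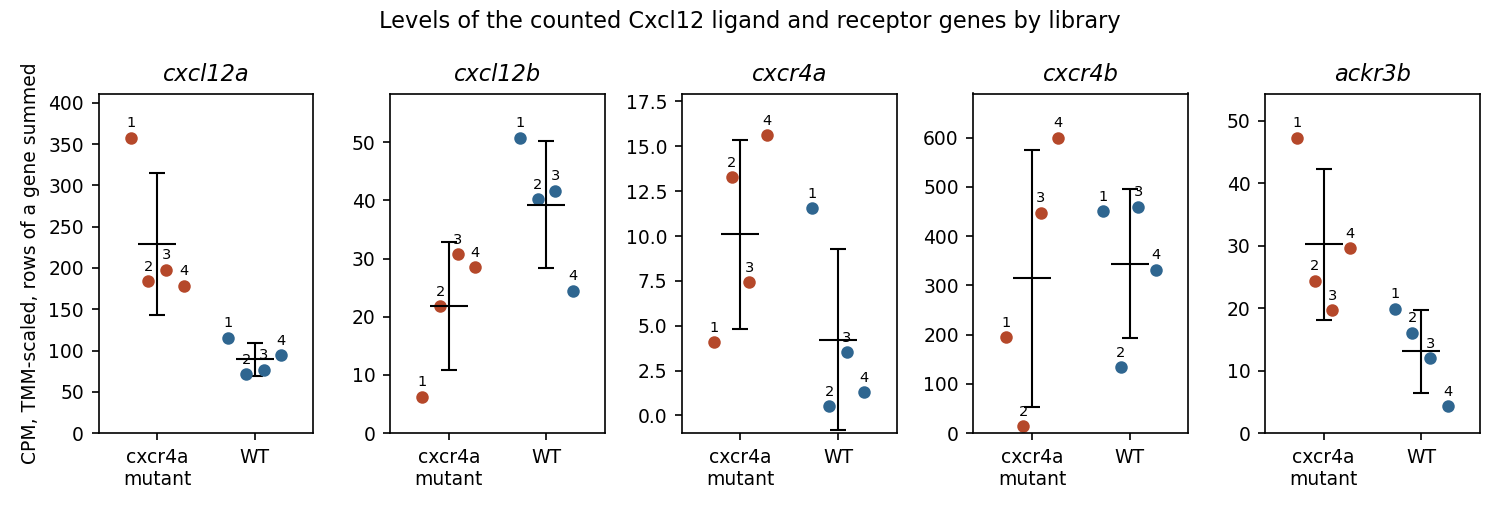
CPM (TMM-scaled, linear axes, rows of a gene summed) of the 5 counted genes in each library, with numbers giving the library of the group and black bars the mean ± SD (n = 4 each). For cxcl12a the 4 cxcr4a mutant libraries sit between 179 and 358 CPM, above all 4 WT libraries at 71.5 to 115 CPM; the groups overlap for the other genes.

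The mutated gene cxcr4a was still counted in mutants. It was at 4.10, 13.3, 7.42 and 15.6 CPM in cxcr4a mutant libraries 1 to 4, against 11.5, 0.523, 3.53 and 1.28 CPM in WT libraries 1 to 4. The groups overlapped because WT 1 lay above mutants 1 and 3. The mean was 10.1 ± 5.28 CPM in mutants and 4.22 ± 5.04 CPM in WT (SD, n = 4 each), and the log2 fold change was 1.26 ± 0.85 (SE), with a 95% interval of -0.65 to 3.17 and an edgeR adjusted p of 0.744. The lowest level, in WT 2, rested on 12 counts. Leaving out WT 1, the library with 21.4% mitochondrial rRNA, gave a log2 fold change of 2.48 (edgeR unadjusted p = 0.0108, adjusted p = 0.329). Leaving out WT 2 gave 0.87 (edgeR unadjusted p = 0.282, adjusted p = 0.877), so neither passed. limma voom with quality weights gave 1.90 over all 8 libraries (unadjusted p = 0.0334, adjusted p = 0.413). A transcript with the um20 lesion can still be counted, so these levels do not check the genotype labels.

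The ligand gene cxcl12a was the member with the smallest p. It stood at 358, 184, 198 and 179 CPM in cxcr4a mutant libraries 1 to 4, against 115, 71.5, 77.1 and 94.4 CPM in WT libraries 1 to 4. Mutant 1 stood far above the other 3 mutants, which lay close together, and the lowest mutant was above the highest WT library. Of all tested symbols, 3.48% had every mutant above every WT library. The mean was 229 ± 85.8 CPM in mutants and 89.6 ± 19.8 CPM in WT (SD, n = 4 each), a fold of 2.56, and the log2 fold change of 1.36 ± 0.29 (SE; 95% interval 0.71 to 2.00) had an edgeR adjusted p of 0.162. By rank of p it stood at 91 of 16631 symbols. The call depended on the tool, since DESeq2 gave a log2 fold change of 1.36 with an adjusted p of 0.00306. Without mutant 1 the log2 fold change was 1.04.

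Cardiomyocyte and mural markers were mostly on the higher side in mutants, although the summed levels of each of the 6 marker lists overlapped between the groups. Of tested cardiomyocyte markers, 11 of 12 were on the higher side in mutants (median log2 fold change 1.07) and 33.3% had an unadjusted p under 0.05 with edgeR. Of mural markers these were 12 of 12 (0.63) and 25%. Markers of 1 cell type can vary together, so such shares do not count independent genes. By library, cardiomyocyte markers summed to 478, 634, 2225 and 1381 CPM in cxcr4a mutants 1 to 4. In WT 1 to 4 they summed to 714, 633, 387 and 450 CPM. Mural markers summed to 2097, 11448, 1053 and 1036 CPM in mutants 1 to 4. In WT 1 to 4 these were 1105, 656, 4599 and 5750 CPM. Over all tested symbols, 50.7% were on the higher side, the median was 0.01 and 8.64% had an unadjusted p under 0.05. Of endothelial markers 6 of 16 were on the higher side (median -0.42, with 12.5% at that p), of leukocyte markers 2 of 14 (-0.20, with 0), of epicardial markers 7 of 13 (0.15, with 7.69%) and of blood markers 2 of 9 (-0.14, with 11.1%). edgeR called 0 of the tested markers. DESeq2 called 3 of 13 mural markers (abcc9, ndufa4l2a and rgs5b), 1 of 17 endothelial markers (flt4) and 1 of 14 cardiomyocyte markers (nppb). It called 0 epicardial, leukocyte and blood markers, and 2.47% of symbols with an adjusted p.

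Tested were 13 epicardial, 16 endothelial, 14 leukocyte, 12 cardiomyocyte, 12 mural and 9 blood markers. Of these, only abcc9, higher in mutants as cxcl12a was, and flt4, lower in mutants, separated the groups. For comparison, 3.48% of all tested symbols had every mutant above every WT library. Every mutant was below every WT library for 3.91% of all tested rows, a share over single rows and not summed symbols. Together, abcc9 and flt4 were a smaller share of the tested markers than either of these shares. flt4, a Vegf receptor gene of lymphatic and venous endothelium, was lower in mutants without overlap, at 32.6 ± 7.98 CPM in mutants and 99.7 ± 35.8 CPM in WT (SD, n = 4 each; log2 fold change -1.61, edgeR adjusted p = 0.145), and stood at rank 68 by p. abcc9, a potassium channel regulator gene of mural cells, was higher without overlap, at 108 ± 34.6 CPM in mutants and 45.1 ± 15.7 CPM in WT (log2 fold change 1.26, edgeR adjusted p = 0.277). nppb, a natriuretic peptide gene, had 855 counts over the mutants and 17 over WT, with overlap. It ranged from 0.29 to 32.9 CPM in mutants (mean 9.72 ± 15.6, SD, n = 4) and from 0 to 0.42 CPM in WT. The low-count filter removed nppb before the edgeR test. ndufa4l2a, a mural marker, had 400 counts over the mutants and 12 over WT, with overlap. It ranged from 0 to 8.10 CPM in mutants and from 0 to 0.43 CPM in WT. In deviations of log2 levels from each group's mean, cxcl12a had Pearson's r = -0.03 with mural, -0.40 with cardiomyocyte and -0.43 with endothelial sums. Without the libraries furthest from each list's median, these were 0.24, -0.06 and 0.41. The part of mural, cardiomyocyte or endothelial RNA in the cxcl12a difference was not tested.

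The most abundant markers overlapped between the groups, apart from flt4. Of cardiomyocyte genes, myl7 averaged 422 ± 299 CPM in mutants and 176 ± 72.7 CPM in WT, actc1a 266 ± 218 CPM in mutants and 92.3 ± 22.9 CPM in WT, and cmlc1 161 ± 122 CPM in mutants and 75.5 ± 37.5 CPM in WT (SD, n = 4 each). Of mural genes, pdgfrb averaged 582 ± 224 CPM in mutants and 466 ± 166 CPM in WT, while the contractile genes acta2 and myh11a ranged from 17.2 to 6182 CPM and from 47.7 to 2016 CPM in mutants, against 21.3 to 3300 CPM and 36.6 to 883 CPM in WT. Of epicardial genes, hapln1a averaged 2345 ± 861 CPM in mutants and 1465 ± 699.9 CPM in WT, and postnb 1332 ± 425 CPM in mutants and 1602 ± 406 CPM in WT. The haemoglobin genes hbba1, hbaa1 and hbba2 lay between 476 and 2692 CPM in mutants and between 84.9 and 4414 CPM in WT.

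Mutant 1, the library with the most cxcl12a, also had the highest summed level of the 14 epicardial markers, at 32600 CPM against 21138 to 23816 CPM in the other mutants and 20069 to 27100 CPM in WT. Most of that sum was col1a2, a type I collagen chain gene that fibroblasts also express. In deviations of log2 levels from each group's mean, cxcl12a and this sum had Pearson's r = 0.93 over the 8 libraries, a description with no test. Without mutant 1 and WT 1, the highest of their groups in both measures, it was 0.13, so the relation rested on those libraries. The pooled relation is not used, because the groups separate in cxcl12a.

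The second ligand gene, cxcl12b, was lower on average in mutants without separating the groups. Its copies summed to 6.29, 21.8, 30.8 and 28.5 CPM in cxcr4a mutant libraries 1 to 4, against 50.8, 40.2, 41.7 and 24.5 CPM in WT libraries 1 to 4. Only WT 4 fell within the range of the mutants, and mutant 1, which had the most cxcl12a, had the least cxcl12b. The mean was 21.9 ± 11.1 CPM in mutants and 39.3 ± 10.9 CPM in WT (SD, n = 4 each), with a log2 fold change of -0.85 ± 0.45 (SE; 95% interval -1.85 to 0.16) and an edgeR adjusted p of 0.650. Without mutant 1 the log2 fold change was -0.55.

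The libraries poorest in endothelial markers were also the poorest in cxcl12b within their groups. The 18 endothelial markers with a row summed to 306, 414, 454 and 418 CPM in cxcr4a mutants 1 to 4 and to 520.4, 518, 482 and 253 CPM in WT 1 to 4. Across the 8 libraries, cxcl12b and this sum had Spearman's rho = 0.90 (exact permutation p = 0.00456, 0.0685 after adjustment over 30 relations) and Pearson's r = 0.68 on the log2 scale (exact permutation p = 0.0652, 0.652 after adjustment). As the relation was chosen after the data were seen, these p-values are descriptions. Without mutant 1 and WT 4, r was 0.93. In that subset every WT library lay above every mutant in both measures, so this value includes the difference between the groups. Within genotype r was 0.74 over the 8 libraries, and 0.62 without mutant 1 and WT 4. Such values were not particular to endothelial markers. Within genotype, cxcl12b had r = 0.77 with cardiomyocyte, 0.28 with leukocyte, -0.07 with blood, -0.27 with mural and -0.53 with epicardial markers. Without the libraries furthest from each list's median, these were 0.57, 0.74, 0.59, -0.38 and 0.52. Endothelial genes did not move alike. Beside flt4, tek, an angiopoietin receptor gene, averaged 31.5 ± 18.2 CPM in mutants and 54.4 ± 13.5 CPM in WT, while aplnra, an apelin receptor gene, averaged 101 ± 33.5 CPM in mutants and 57.03 ± 30.5 CPM in WT. kdr, a Vegf receptor gene, averaged 31.2 ± 14.0 CPM in mutants and 11.4 ± 8.16 CPM in WT (log2 fold change 1.45, unadjusted p = 0.0329, edgeR adjusted p = 0.527). The defining genes kdrl, of a related receptor, and cdh5, the endothelial cadherin gene, were counted in both groups, at 32.9 ± 7.47 and 14.2 ± 4.76 CPM in mutants, against 36.1 ± 22.4 and 20.02 ± 13.0 CPM in WT (SD, n = 4 each). The part of endothelial RNA in the cxcl12b difference was not tested.

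Set against each other within a library, the ligand genes separated the groups. The ratio of cxcl12a to cxcl12b counts was 56.9, 8.43, 6.43 and 6.26 in cxcr4a mutants 1 to 4, against 2.27, 1.78, 1.85 and 3.86 in WT 1 to 4. Every mutant ratio was above the highest WT ratio, with mutant 1 far above the rest. On the log2 scale the ratio was 3.56 ± 1.53 in mutants and 1.21 ± 0.51 in WT (SD, n = 4 each), a difference of 2.35. The ratio does not depend on scaling between libraries, and its size is not a ratio of transcript numbers because the lengths of these genes differ. It combines genes chosen with results known and was not tested.

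**Figure D2:**
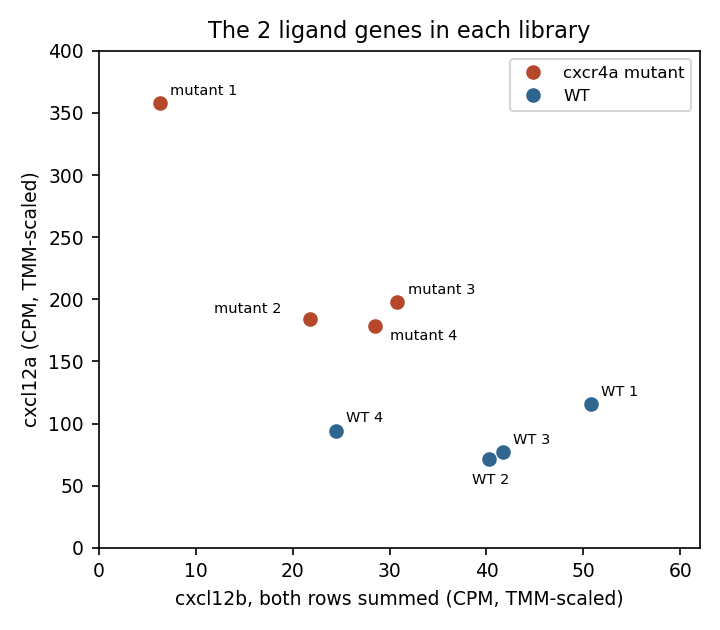
Level of cxcl12a against that of cxcl12b (CPM, TMM-scaled, linear axes) in each of the 8 libraries. All cxcr4a mutants lie above all WT libraries in cxcl12a, while in cxcl12b WT 4, at 24.5 CPM, lies among the mutants, and mutant 1, at 358 CPM of cxcl12a and 6.29 CPM of cxcl12b, lies apart.

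The 2 copies of cxcl12b did not move alike. The plain row was at 2.38, 3.54, 5.16 and 11.3 CPM in cxcr4a mutants 1 to 4, against 13.9, 37.3, 27.9 and 13.2 CPM in WT 1 to 4, so that all mutants were below all WT libraries. Among all tested rows, 3.91% had every mutant below every WT library. Its log2 fold change was -2.05 ± 0.55 (SE) with an edgeR adjusted p of 0.183 over 18002 rows, while DESeq2 called it (adjusted p = 0.0123). The row cxcl12b_1 was at 3.91, 18.3, 25.6 and 17.2 CPM in mutants 1 to 4, against 36.9, 2.96, 13.8 and 11.3 CPM in WT 1 to 4, with a log2 fold change of -0.01 ± 0.72 (SE; edgeR adjusted p = 0.997). The direction of this second row was not stable, and its log2 fold change reached 0.79 without WT 1.

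Most of the cxcl12b reads in mutants stood on the second row. Its share of both rows was 62.1%, 83.8%, 83.2% and 60.3% in cxcr4a mutants 1 to 4, against 72.6%, 7.37%, 33.2% and 46.2% in WT 1 to 4. The groups overlapped through WT 1 (exact 95% interval 69.7% to 75.4%), which was the highest of its group, while WT 2 (5.77% to 9.25%) was the lowest, so libraries of 1 genotype differed in which row took the reads. These intervals allow for counting error alone, as PCR copies of a molecule were not told apart. The sources used here do not say what distinguishes the rows in the annotation, and counts of a single row are uncertain where a read could be placed on either.

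**Figure D3:**
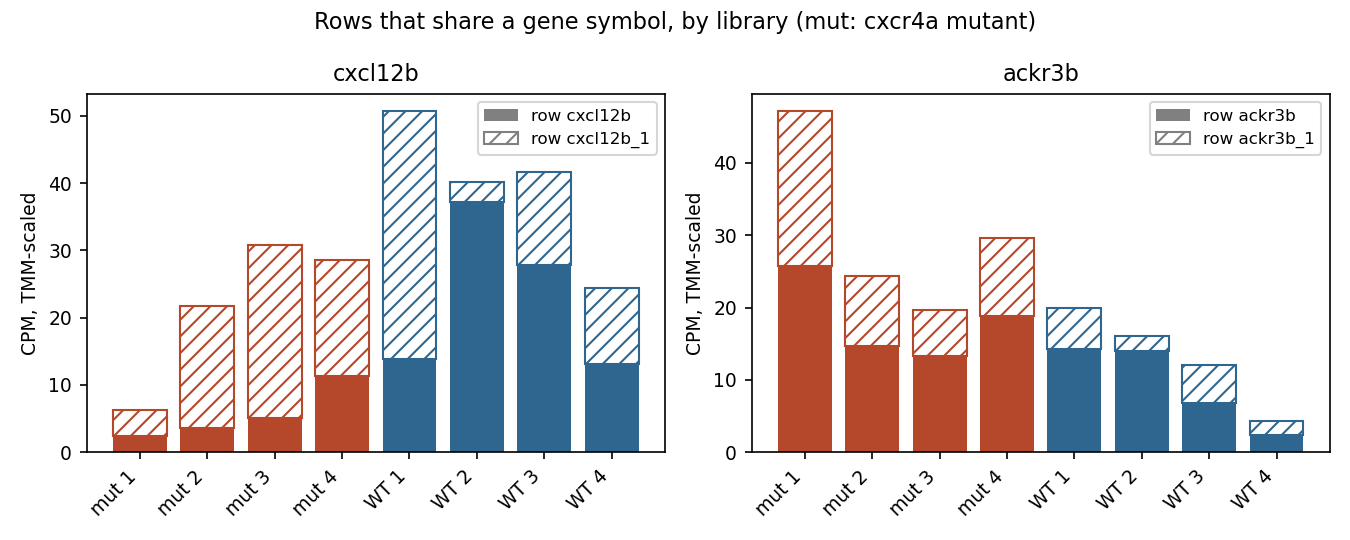
CPM (TMM-scaled) of the rows that share the symbols cxcl12b and ackr3b in each library, stacked; filled bars are the plain row, hatched bars the row with an added number, red cxcr4a mutants and blue WT. The plain cxcl12b row stays at or below 11.3 CPM in mutants and at or above 13.2 CPM in WT, while the hatched row varies within both groups.

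Of the signalling receptors, cxcr4b had many more counts than cxcr4a and varied widely within the mutants. It was at 195, 14.2, 447 and 599 CPM in cxcr4a mutants 1 to 4, against 450.4, 134, 459 and 332 CPM in WT 1 to 4. The groups overlapped over nearly their whole range, and mutant 2, with 245 counts, was the lowest of all libraries. The highest mutant was 42.2 times the lowest, against 3.42 times within WT. The mean was 314 ± 260.3 CPM in mutants and 344 ± 151 CPM in WT (SD, n = 4 each), with a log2 fold change of -0.13 ± 0.82 (SE; 95% interval -1.96 to 1.70) and an edgeR adjusted p of 0.983. That interval takes in changes of several-fold in either direction. Without mutant 2 the log2 fold change was 0.26.

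The level of cxcr4b, a receptor gene used by many leukocytes, followed the leukocyte markers from library to library. Those markers summed to 1476, 698, 2742 and 4648 CPM in cxcr4a mutants 1 to 4, against 2519, 1405, 3949 and 2895 CPM in WT 1 to 4. Mutant 2 was lowest and mutant 4 highest in both measures. Over the 8 libraries, log2 levels had Pearson's r = 0.93 (exact permutation p = 4.96e-04, 0.0149 after adjustment over 30 relations of 5 members with 6 marker lists) and Spearman's rho = 0.90 (exact permutation p = 0.00456, 0.0685 after adjustment). The relation was r = 0.92 within genotype, from deviations from each group's mean, and r = 0.89 without mutant 2 and WT 2. No other of the 30 relations passed after adjustment. The relations were chosen after the data were seen, and the permutation moved libraries across genotypes, so these p-values are descriptions.

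The leukocyte list held 24 genes, of which 20 had a row and 14 were tested. Its largest contributors were cd74a and cd74b, invariant chain genes of antigen presentation, and lcp1, the leukocyte actin-bundling plastin. lcp1 averaged 304 ± 252 CPM in mutants and 395 ± 115 CPM in WT, and spi1b, a myeloid transcription factor gene, at 52.5 ± 42.4 CPM in mutants and 64.9 ± 19.997 CPM in WT (SD, n = 4 each). The defining genes mpeg1.1, of macrophages, and coro1a had 0 and 15 counts over all mutants and 2 and 8 counts over all WT libraries, and lck, of T cells, had none. Other genes on the list had many more counts. Over the mutants and over WT these were 9967 and 27179 for marco, 3972 and 6100 for csf1ra, and 2150 and 2386 for il2rga. Leukocyte markers overlapped between the groups, as did cxcr4b. Whether leukocytes were in the sort and carried the cxcr4b counts was not tested.

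**Figure D4:**
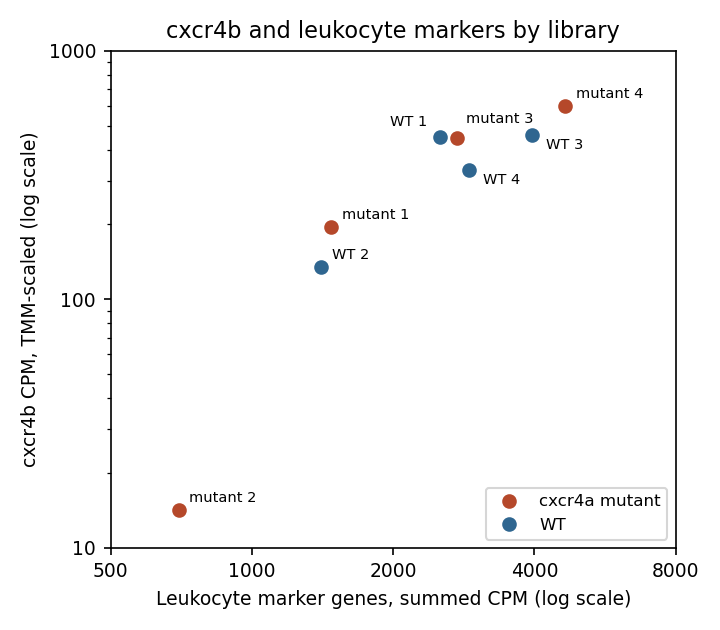
Level of cxcr4b against the summed level of 20 leukocyte marker genes (CPM, TMM-scaled, both axes logarithmic) in each library, with cxcr4a mutants in red and WT in blue. The libraries form a rising band from mutant 2, at 698 and 14.2 CPM, to mutant 4, at 4648 and 599 CPM. Both genotypes lie along it (Pearson's r = 0.93 on the log2 scale, n = 8, exact permutation p = 4.96e-04). This relation was chosen after the data were seen.

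The signalling receptors did not keep a constant ratio within a library. The ratio of cxcr4b to cxcr4a counts was 47.6, 1.07, 60.3 and 38.4 in cxcr4a mutants 1 to 4, against 39.0, 257, 130.1 and 258 in WT 1 to 4. Mutant 2 stood out with nearly equal counts of the paralogs, and the groups overlapped through WT 1. On the log2 scale the ratio was 4.21 ± 2.76 in mutants and 7.08 ± 1.28 in WT (SD, n = 4 each).

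Among the scavenger receptors, only ackr3b was counted. Its copies summed to 47.2, 24.4, 19.6 and 29.6 CPM in cxcr4a mutants 1 to 4, against 19.9, 16.1, 12.0 and 4.28 CPM in WT 1 to 4. The groups met at a single point, where WT 1 was just above mutant 3. The mean was 30.2 ± 12.1 CPM in mutants and 13.1 ± 6.69 CPM in WT (SD, n = 4 each), a fold of 2.31. The log2 fold change of 1.21 ± 0.46 (SE; 95% interval 0.17 to 2.25) had an unadjusted p of 0.0266 and an edgeR adjusted p of 0.497. Without mutant 1 it was 0.89.

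Both rows of ackr3b were on average higher in mutants. The plain row was at 25.7, 14.7, 13.4 and 18.8 CPM in cxcr4a mutants 1 to 4, against 14.3, 14.0, 6.76 and 2.38 CPM in WT 1 to 4, with overlap and a log2 fold change of 0.95 ± 0.52 (SE; edgeR adjusted p = 0.573). The row ackr3b_1 was at 21.5, 9.68, 6.29 and 10.8 CPM in mutants 1 to 4, against 5.58, 2.09, 5.24 and 1.90 CPM in WT 1 to 4, with every mutant above every WT library, as for 4.5% of all rows, and a log2 fold change of 1.70 ± 0.54. That row did not pass with edgeR (adjusted p = 0.271) and did with DESeq2 (adjusted p = 0.0432). Over the 7 counted rows of the members, edgeR called 0 of 7 against 0.35% of all rows, with 3 at an unadjusted p under 0.05 against 10.8%, DESeq2 3 of 7 against 4.09%, and limma voom 0 of 7 against 0.555%, with 5 at an unadjusted p under 0.05 against 13.5%. The second row held 45.6%, 39.8%, 32.0% and 36.4% of ackr3b counts in mutants 1 to 4, and 28.0%, 13.0%, 43.6% and 44.4% in WT 1 to 4.

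ackr3a was listed at 0 on both of its rows in all 8 libraries, 0 of 184188910 counts. A count of 0 allows up to 3 counts, or 0.0161 CPM over all libraries together. A symbol with no count was common, as 33.1% of the 6260 symbols on more than 1 row and 28.8% of the 31425 symbols on a single row had none. The sources used here do not say whether reads that match both rows alike were counted.

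**Figure D5:**
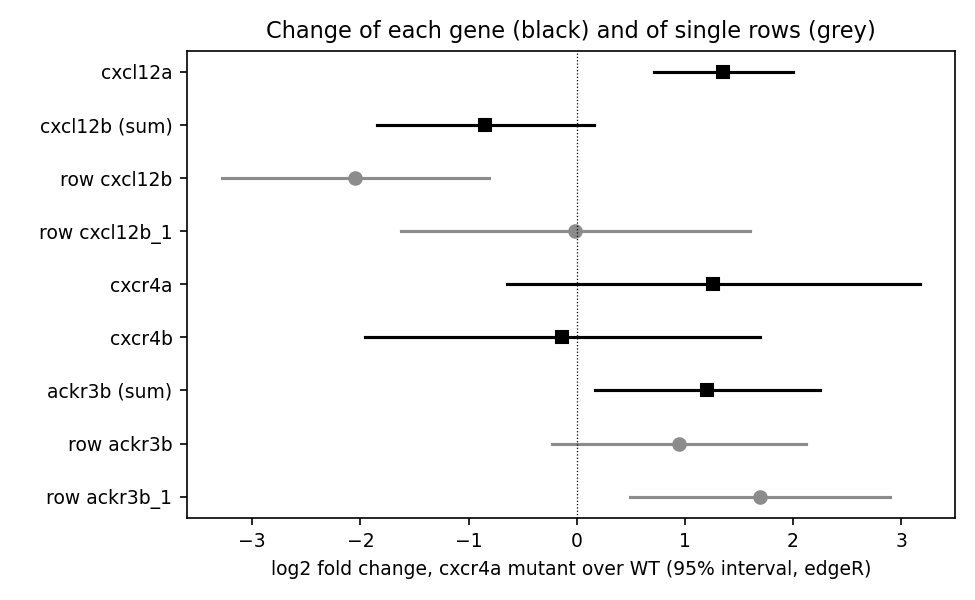
Log2 fold change, cxcr4a mutant over WT, with 95% interval from edgeR, for the 5 counted genes (black squares) and for the single rows of cxcl12b and ackr3b (grey circles). The intervals of cxcl12a (0.71 to 2.00), ackr3b (0.17 to 2.25), the plain cxcl12b row and the ackr3b_1 row leave out 0 before adjustment over all genes, and no member passed after it.

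Genes that handle the ligand outside the cell were the pathway group with the largest share of small p-values. The pathway lists were chosen with earlier results of these data known, so their shares are descriptions. Of 28 tested genes for heparan sulfate proteoglycans, heparan sulfate enzymes, ligand-cutting proteases and other Cxcr4 or Ackr3 ligands, 23 were on the higher side in mutants, against 50.7% of all tested symbols, and the median log2 fold change was 0.20 against 0.01 over all tested symbols. edgeR called 0 of 28, with 8 (28.6%) at an unadjusted p under 0.05, all of them higher in mutants, against 8.64% of all symbols in either direction and 5.09% higher. DESeq2 called 2 of 30 with a p, gpc1b and sulf1, against 2.47% of symbols with an adjusted p. limma voom called 0, with 7 of 28 at an unadjusted p under 0.05 against 10.8%.

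Both gpc1b and sulf1 encode products that carry or shape heparan sulfate, the surface on which Cxcl12 is held. gpc1b, encoding a glypican, stood at 179 ± 26.7 CPM in mutants and 83.4 ± 16.1 CPM in WT (SD, n = 4 each), with no overlap, a fold of 2.15 and an edgeR adjusted p of 0.138. sulf1, encoding an extracellular enzyme that removes sulfate groups from heparan sulfate, averaged 177 ± 63.5 CPM in mutants and 72.8 ± 24.5 CPM in WT, with a log2 fold change of 1.28 ± 0.34 (SE; edgeR adjusted p = 0.287). The other 6 genes at an unadjusted p under 0.05, named after their values were seen, were sulf2b, the syndecan genes sdc2 and sdc4, the glypican gene gpc1a and the proteases mmp14b and mmp9.

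Genes inside the signalling pathway had few small p-values. Of 33 tested G protein and effector genes, 21 were on the higher side in mutants (median log2 fold change 0.11). edgeR called 0 and 1 (3.03%) had an unadjusted p under 0.05, against 8.64% of all symbols. That 1 gene was gng10, a G protein gamma subunit gene, at 6.77 ± 3.34 CPM in mutants and 15.4 ± 2.73 CPM in WT (log2 fold change -1.18 ± 0.39, edgeR adjusted p = 0.445). DESeq2 called 0 of 35 with a p, with 1 at an unadjusted p under 0.05, against 9.14% of symbols. limma voom called 0 of 33, with 2 at an unadjusted p under 0.05, against 10.8%. gna13b, the alpha subunit gene with the next smallest p, averaged 33.3 ± 11.4 CPM in mutants and 49.6 ± 7.06 CPM in WT (edgeR adjusted p = 0.627).

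Of 22 tested genes that switch receptors off or sort them for degradation, 16 were on the higher side in mutants (median log2 fold change 0.21). edgeR called 0 of them. With 2 (9.09%) at an unadjusted p under 0.05, both higher in mutants, the share was close to the 8.64% of all symbols. The first was rgs5b, a regulator of G protein signalling that is also a mural cell marker, at 216 ± 173 CPM in mutants and 44.5 ± 12.7 CPM in WT (log2 fold change 2.28 ± 0.62, edgeR adjusted p = 0.305; called by DESeq2). The second was rgs2, at 8.89 ± 8.14 CPM in mutants and 3.10 ± 1.39 CPM in WT (edgeR adjusted p = 0.556). DESeq2 called 1 of 23 with a p, rgs5b, against 2.47% of symbols with an adjusted p. limma voom called 0 of the 22, with 0 at an unadjusted p under 0.05, against 10.8% of all symbols. The 13 mural markers summed to between 1036 and 11448 CPM in mutants and between 656 and 5750 CPM in WT, and their part in the rgs5b difference was not tested.

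Of 26 tested genes known as regulators or partners of the axis in vessels and low oxygen, 19 were on the higher side in mutants (median log2 fold change 0.36). edgeR called 0, with 3 (11.5%) at an unadjusted p under 0.05, all higher in mutants, against 8.64% of all symbols in either direction and 5.09% higher. DESeq2 called 1 of 25 with a p, apln, against 2.47% of symbols with an adjusted p. limma voom called 0, with 4 of 26 at an unadjusted p under 0.05 against 10.8%. apln, which encodes the peptide ligand apelin, averaged 97.6 ± 14.5 CPM in mutants and 59.6 ± 6.42 CPM in WT (SD, n = 4 each), with no overlap (log2 fold change 0.71 ± 0.19, edgeR adjusted p = 0.297). vegfab, an angiogenic ligand gene, averaged 65.8 ± 71.8 CPM in mutants and 14.1 ± 5.56 CPM in WT (log2 fold change 2.22 ± 0.71, edgeR adjusted p = 0.410). hif1ab, a low-oxygen transcription factor gene added after its value was seen, averaged 463 ± 69.6 CPM in mutants and 430.2 ± 14.2 CPM in WT (edgeR adjusted p = 0.932). Its paralog hif1aa, added in the same way, ranged from 2.55 to 7.24 CPM in mutants and from 0 to 1.61 CPM in WT. The log2 fold change of hif1aa was 2.13 ± 1.03 (SE, edgeR adjusted p = 0.609).

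The genes most like each member in their variation within genotype differed between members. Likeness was Pearson's r over 8 libraries between deviations of log2 CPM from the genotype mean. Candidates were 8547 or 8548 tested symbols with a mean log2 CPM of 3 or more. Symbols of clone type, such as those starting with LOC, si: or zgc:, were left out, so a closer gene may lie among them. As the highest of that many values, these are descriptions. For cxcl12a they were cldn5a, a claudin gene (r = 0.97), nfkbiaa, an inhibitor of NF-kappaB (0.97), and col1a2 (0.95). Each of these 3 was highest in mutant 1 of all libraries. For cxcl12b they were lin9 (0.97), lin54 (0.97) and tex2 (0.97), with lin9 and lin54 encoding subunits of a cell cycle gene regulatory complex.

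For cxcr4b they were tnfrsf21, a death receptor gene (r = 0.995), fam49ba (0.99) and sla1a, an adaptor of Src family signalling (0.99). All 3 were lowest in mutant 2, as cxcr4b was, at 0.174, 3.02 and 0.406 CPM. For cxcr4a they were patz1 (r = 0.99), rit1 (0.97) and map3k14a (0.96), and for ackr3b cert1b, a ceramide transfer protein gene (0.98), asap3 (0.97) and rin2b (0.96). cxcr4a was below the level needed to be a candidate, and ackr3a had no counts. None of the other members was among the nearest genes of any member. Between members, the values furthest from 0 were -0.71 for cxcl12a with cxcl12b and 0.50 for cxcr4a with cxcl12b.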

How the data were processed

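The libraries were SMART-Seq v4 with Nextera XT, per the labels' protocols, a chemistry that does not mark strand, so overlapping antisense genes cannot be separated. The authors deposited raw read counts, 1 whole number per symbol and library. The submitters' processing notes name cutadapt 5.2, STAR 2.7.11a, HTSeq and the build GRCz11; the version of HTSeq, all settings and the annotation were not given in the sources used here. Unassigned reads were not analysed here.

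Rows of a symbol were summed after removing an added number. Both tables were fitted in R 4.3.3 with edgeR 4.0.16 (low counts removed by filterByExpr, TMM, quasi-likelihood F-test, 2-sided, genotype only, all 8 libraries), adjusted by Benjamini-Hochberg over all tested symbols or rows and called at 0.05. Standard errors came from the F statistic. CPM used the TMM factors of the summed table. Alternatives were DESeq2 1.42.0, limma 3.58.1 voom with quality weights for the libraries, other scalings and filters, a replicate block and left-out libraries. For DESeq2, the shares called over all features are over the 18966 symbols or 21705 rows with an adjusted p. Its counts within lists are over genes with an unadjusted p, so the 2 bases differ. The edgeR step was tested on simulated data.

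The members and lists were chosen with earlier results of these data known. Named from the lists are genes called by edgeR, or else the 2 with the smallest p per pathway list, and the 3 most abundant per marker list. Named too are the 3 genes most like each member at a mean log2 CPM (prior count 2) of at least 3, symbols of clone type left out. Further genes, those called by DESeq2 among them, were named after their values were seen. The relations with marker lists were chosen after seeing the data and tested by exact permutation over the 8 libraries, 2-sided. No 2 libraries agreed within sampling noise. No sequence is printed, as none was used here.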

Additional observations from a re-analysis of the deposited data

Results flagged for a closer look

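Single libraries stood far from the other 3 of their group in 6 of 38 checks of members, single rows of cxcl12b and ackr3b, ratios, copy shares and marker sums. Members, rows, shares and ratios use the same counts, so these checks are not independent. Chance alone flags about 1 in 20 groups of normally distributed values, a rate that need not hold for unlogged CPM.

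Among members, cxcl12a was at 358 CPM in cxcr4a mutant 1, against 179 to 198 CPM in the other mutants. The log2 ratio of cxcl12a to cxcl12b counts was 5.83 in the same library, against 2.65 to 3.08. The log2 ratio of cxcr4b to cxcr4a counts was 0.0974 in cxcr4a mutant 2, against 5.26 to 5.91. Among marker sums, mural markers reached 11448 CPM in cxcr4a mutant 2, against 1036 to 2097 CPM in the other mutants. Epicardial markers were at 27100 CPM in WT 1, against 20069 to 20612 CPM in the other WT libraries, and endothelial markers at 253 CPM in WT 4, against 482 to 520.4 CPM.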

How the results depend on the processing

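The 4 libraries per group and their spread limit these results, and levels of cxcr4a also rest on few counts. cxcr4a, cxcl12a, cxcl12b and ackr3b as summed genes kept their direction under all 16 alternatives run for each. cxcl12a passed with DESeq2 (log2 fold change 1.36, adjusted p = 0.00306) and with none of the other 15, where the log2 fold change lay between 1.04 and 1.496; its adjusted p ran from 0.00306 to 0.489. The direction of cxcr4b turned with 4 of 8 single libraries left out (summed -0.65 to 0.26, as deposited -0.65 to 0.26) and without cxcr4a mutant 1 and 2 together (0.597 summed, 0.596 as deposited). The row cxcl12b_1 turned with library size only (0.127), voom (0.483), the replicate block (0.417), without cxcr4a mutant 1 and 2 (0.390) and with single libraries left out (-0.36 to 0.79). The cause of these turns was not tested.

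Counts of calls moved more. With copies summed edgeR called 8 symbols, DESeq2 468 and voom 2; leaving out 1 library gave 0 to 9, and leaving out cxcr4a mutant 1 and 2 gave 0 (1059 at an unadjusted p under 0.05). As deposited the counts were 63, 887 and 100, then 16 to 43, and 7. Without cxcr4a mutant 1 edgeR called 0 summed symbols (1063 at an unadjusted p under 0.05). With the replicate block, 0 summed symbols (1320 at an unadjusted p under 0.05) and 2 rows were called and no member was. Libraries of the same number correlated at 0.126, 0.0283, 0.0394 and -0.145 in their deviations, and not every library correlated best with its own number. What a shared number stands for was not known here, and these correlations cannot decide whether such libraries were handled together.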
